A study of Mus musculus with 2 samples.

Results

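The genes described here are 10 genes of the inflammasome and of pyroptosis, the lytic death of cells that follows its activation: the sensors Nlrp3, Nlrc4 and Aim2, the adaptor Pycard, the caspases Casp1, Casp4 and Casp8, the pore-forming Gsdmd, the cytokine Il18 and its antagonist Il18bp. They were taken as all non-control probes whose gene name in the array files is 1 of these symbols, which gave 12 probes for 10 genes, of 12419 genes measured on both arrays. All 12 probes were well above background on both arrays, so all 10 genes were measured. The samples were 1 preparation of c-Maf-/- mouse bone marrow-derived macrophages, which lack the transcription factor c-Maf, and 1 preparation of c-Maf+/- macrophages, which keep 1 copy of its gene. Both preparations had been grown from marrow for 5 days in M-CSF, supplied as CMG14-12 culture medium, and both were treated with 100 ng/ml lipopolysaccharide (LPS) for 5 h. RNA of each was measured on 1 one-colour array of the same slide. The c-Maf+/- cells are not wild type, the labels do not say how the allele was made or how many mice gave marrow and at what age, and cells without LPS were not analysed here, so nothing below is a measure of induction by LPS. With 1 array per genotype there is no replicate and no test of the genotypes, and every difference below is a difference between these 2 arrays.

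An inflammasome is a protein platform that forms in the cytosol when a sensor meets a danger signal: NLRP3 reacts to ion flux and membrane damage, NLRC4 to bacterial flagellin and secretion systems through NAIP receptors, and AIM2 to DNA. The sensor recruits the adaptor ASC, encoded by Pycard, which gathers caspase-1. Caspase-1 then cleaves the precursors of interleukin-1 beta and interleukin-18 and opens gasdermin D, whose free end forms pores in the plasma membrane. In mouse macrophages caspase-11, encoded by Casp4, binds LPS in the cytosol and cleaves gasdermin D directly, and caspase-8 links the pathway to death receptors. LPS acting through Toll-like receptor 4 is known to raise Nlrp3 by NF-kB and Casp4 and Il18bp in part by interferon, the step called priming.

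Some of the 60-base probes that give the values are shown here, 5′ to 3′ as deposited and in lower case, because 4 of these 5 genes lay closest to 0 and the Nlrp3 probe is the more different of a pair. Probe positions are those of the array files in mouse build mm9, and exon and UTR positions are not stated, because no annotation of mm9 was used.
Gsdmd, chr15:75697536-75697595, plus strand: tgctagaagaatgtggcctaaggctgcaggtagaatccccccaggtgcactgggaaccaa
Il18, chr9:50389761-50389820, plus strand: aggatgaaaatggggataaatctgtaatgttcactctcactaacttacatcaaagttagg
Pycard, chr7:135136241-135136300, minus strand: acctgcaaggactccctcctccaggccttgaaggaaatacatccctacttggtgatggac
Casp8, chr1:58901601-58901660, plus strand: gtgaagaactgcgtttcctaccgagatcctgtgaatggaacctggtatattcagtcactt
Nlrp3, chr11:59378554-59378613, plus strand: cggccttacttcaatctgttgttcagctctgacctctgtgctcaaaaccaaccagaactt

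All values are processed signals, linear brightness units from which the scanner software has subtracted background. For differences, log2 of each signal was taken relative to its own array's 75th percentile signal, taken over non-control spots (296 on the c-Maf-/- array, 291 on the c-Maf+/- one), and c-Maf+/- was subtracted from c-Maf-/-. A positive difference thus means higher in c-Maf-/-, and a gene with several probes has their mean. Each array had 59305 non-control spots, and 44.9% of those of the c-Maf-/- array and 45.3% of those of the c-Maf+/- array were well above background, none saturated. The error model of the scanner software, which rests on a preset 10% error of each spot, gave every probe of the 10 genes an error of 0.20 to 0.21 on the log2 difference. That error is of 1 spot on each array, also for Gsdmd with its 10 spots, and does not cover cultures or mice. Maf itself was the check of the labels: its brighter probe (chr8:118227736-118227795) gave 12.6 in c-Maf-/- cells, which is not well above background, against 15101 in c-Maf+/- cells, so it was lower in c-Maf-/- by at least 636-fold. The other Maf probe (chr8:118207273-118207332) gave 5.96 in c-Maf-/- cells, also not well above background, against 541 in c-Maf+/- cells, at least 22.8-fold lower. Whether these probes lie in the deleted part is not given in the labels.

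Among the sensors, Nlrc4 was higher and Aim2 lower in c-Maf-/- macrophages, and Nlrp3 was slightly lower (-0.23, and -0.08 with spike-in scaling). Nlrc4, the sensor that acts with the NAIP receptors, gave 259 signal units in c-Maf-/- cells, against 130 in c-Maf+/- cells (1 probe, chr17:74826172-74826231, minus strand). This is a log2 difference of 0.97, or 1.96-fold higher, the farthest from 0 of the 10 genes and just short of 2-fold. Of the 12419 genes, 191 had a difference at least as high. The value lay between 0.75 with normexp background correction, which models background as noise added to the signal, and 1.12 with scaling on the spike-in transcripts, where it passed 2-fold. Before background subtraction the Nlrc4 spot stood at 325 in c-Maf-/- over a local background of 20, against 181 in c-Maf+/- over 23.

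Aim2, the sensor of cytosolic DNA, gave 287 signal units in c-Maf-/- cells, against 483 in c-Maf+/- cells (chr1:175396036-175396095, plus strand). Its log2 difference was -0.77, which is 1.71-fold lower in c-Maf-/-, and 411 of the 12419 genes were at most as low. The difference of Aim2 lay between -0.77 and -0.63 over all 9 processing settings. The gap between the Nlrc4 and Aim2 differences, which shared scaling cannot move, was 1.75 on the log2 scale and at least 1.40 under each of the 9 settings. The settings that filter or pick probes could not move it either, as each gene has 1 probe, which passed them.

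Nlrp3, the sensor most studied in LPS-primed macrophages, was measured by 2 probes that lie 1427 bases apart at their starts and share no bases. The probe shown above had signals of 522 in c-Maf-/- against 664 in c-Maf+/-, a log2 difference of -0.37. The other probe (chr11:59379981-59380040, plus strand) had signals of 846 in c-Maf-/- against 880 in c-Maf+/-, a difference of -0.08. Both were lower in c-Maf-/-, but they differed from each other by more than their mean of -0.23 (SD 0.21 over 2 probes). The SD of probes of 1 gene had a median of 0.09 over the 3452 genes with at least 2 measured probes and a 95th percentile of 0.48, so the pair was within the usual range of disagreement.

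The adaptor gene Pycard, which encodes ASC, had signals of 14367 in c-Maf-/- against 13631 in c-Maf+/-. Its log2 difference of 0.05 was the closest to 0 of the 10 genes and, with Nlrc4, 1 of 2 above 0. Pycard stayed above 0 in all 9 settings, from 0.03 to 0.20, where the highest value is that of spike-in scaling.

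**Figure D1:**
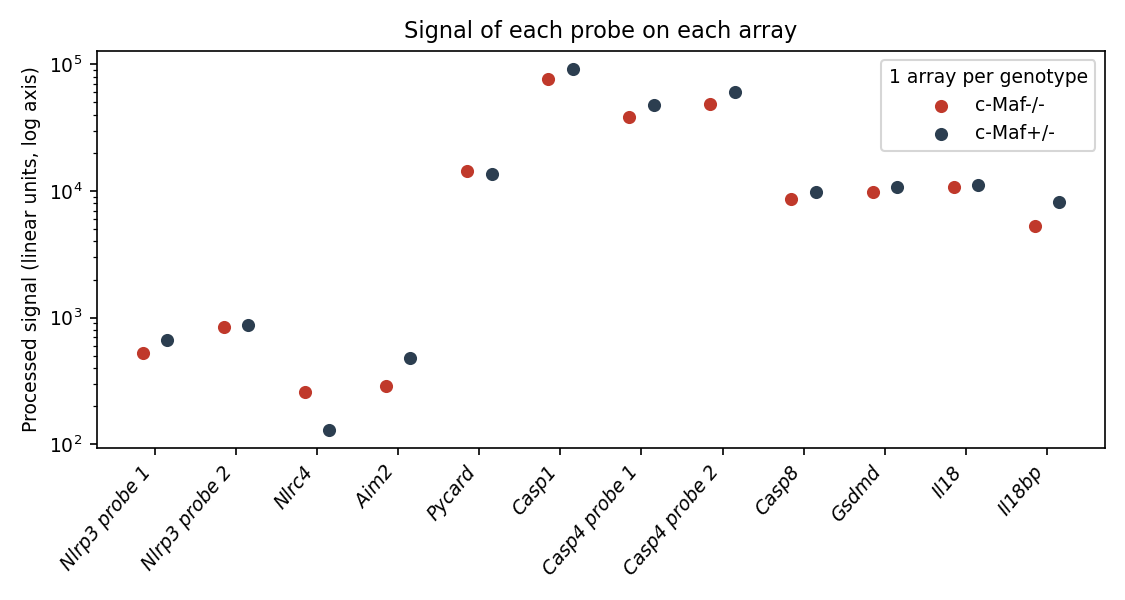
Processed signal (linear units on a log axis) of each of the 12 probes on the c-Maf-/- array (red) and the c-Maf+/- array (dark), 1 point per probe and array. Of the 12 probes, only the Nlrc4 and Pycard points are higher in c-Maf-/-; signals of different probes are not comparable as RNA levels.

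The 3 caspase genes were all slightly lower in c-Maf-/- macrophages, by less with spike-in scaling, which put Casp1 at -0.15, Casp4 at -0.19 and Casp8 at -0.055. Casp1, the protease that matures interleukin-1 beta and interleukin-18, gave 76091 signal units in c-Maf-/- cells, against 92109 in c-Maf+/- cells (chr9:5307206-5307265, plus strand), a log2 difference of -0.30. Casp4, the gene of caspase-11, had 2 probes. One had signals of 38471 in c-Maf-/- against 47629 in c-Maf+/- and the other 48810 in c-Maf-/- and 60595 in c-Maf+/-, with differences of -0.33 and -0.34. These probes share 55 of their 60 bases (chr9:5336663-5336722 and chr9:5336658-5336717, plus strand), so they are close to 1 measurement made at a pair of spots, with an SD of 0.0028. Casp4 and Casp1 differed by 0.03 in their differences, far less than the error of 0.20 of each.

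Casp8, the death-receptor caspase that can also cleave gasdermin D, had signals of 8709 in c-Maf-/- against 9838 in c-Maf+/-, a log2 difference of -0.20. Gsdmd, the pore-forming target of these caspases, was the best measured of the 10 genes, with 10 spots of 1 probe on each array. The lowest, median and highest spot signals were 9490, 9762 and 10270 in c-Maf-/-, against 10196, 10804 and 11151 in c-Maf+/-. The spot signals of the arrays overlapped at their edges, but at each of the 10 positions the scaled signal was lower in c-Maf-/-. The mean log2 difference was -0.16 (SD 0.024 over 10 spots, range -0.19 to -0.13), a 1.12-fold lower signal. This difference exceeded the spread between spots. It was -0.017 with spike-in scaling, so its distance from 0 rested on the scaling.

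Il18 and its antagonist gene Il18bp differed in their distance from 0. Il18, the cytokine precursor cleaved by caspase-1, had signals of 10715 in c-Maf-/- against 11228 in c-Maf+/-, a log2 difference of -0.09 that turned to 0.05 with spike-in scaling. Il18bp encodes a secreted protein that binds interleukin-18 and keeps it from its receptor. It gave 5303 signal units in c-Maf-/- cells, against 8118 in c-Maf+/- cells (chr7:109164100-109164159, minus strand), a log2 difference of -0.64 or 1.56-fold lower in c-Maf-/-, with 673 of the 12419 genes at most as low. The Il18bp difference lay between -0.65 and -0.49 over the 9 settings. The difference of Il18bp minus that of Il18 was -0.55 and lay between -0.56 and -0.53 over the 9 settings. Spike-in scaling cancels in this gap, and settings that filter or pick probes could not move it, as each gene has 1 bright probe. Only normexp, no background subtraction, quantile and loess normalization could move it, and under these the Il18bp signal was also lower relative to Il18 in c-Maf-/-. This pair and the other pairs of genes set against each other were chosen after their values were seen.

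**Figure D2:**
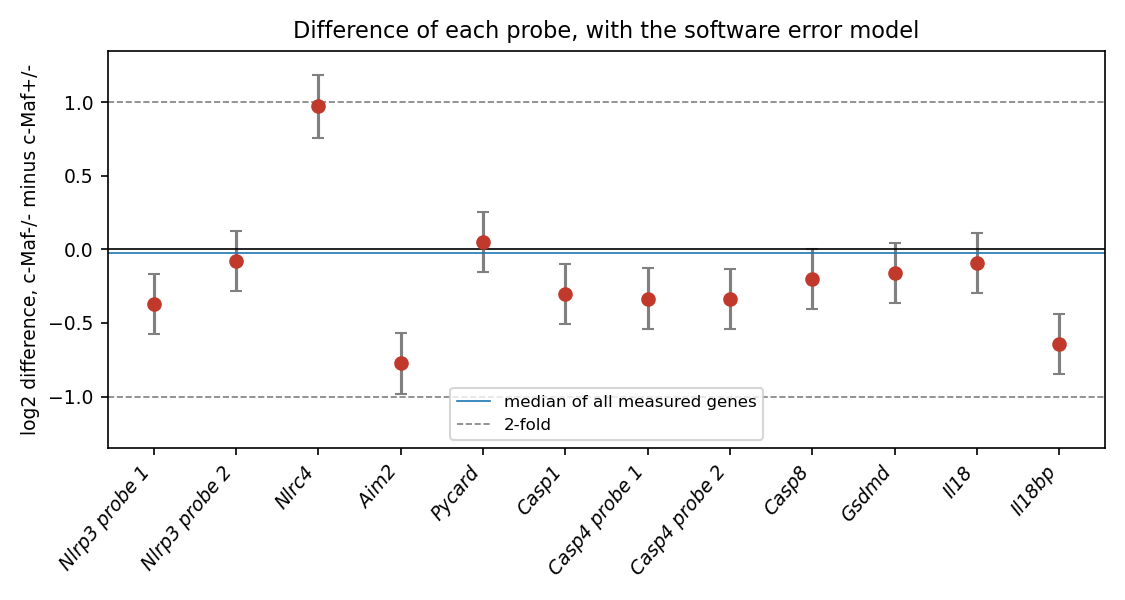
log2 difference of each of the 12 probes, c-Maf-/- minus c-Maf+/-, with bars of 1 error of the software's error model (0.20 to 0.21); the dashed lines are 2-fold and the blue line is the median of all genes. The bars of Nlrc4, Aim2 and Il18bp end farthest from 0, and those of Pycard, Il18, Gsdmd, Casp8 and 1 Nlrp3 probe cross it. The Gsdmd bar is the error of 1 spot, though its point is a mean over 10 spots.

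As a group, 8 of the 10 genes had a value below 0, beside 53.7% of all measured genes, and their median was -0.21, beside -0.02 over all genes. The other 2 were above 0, beside 46.3% of all genes. None of the 10 was past 2-fold in c-Maf-/-, beside 1.74% of all genes lower, 1.43% higher and 3.16% either way, so their count at 2-fold is near the background. The lowest value was -0.77 and the highest 0.97. With spike-in scaling the median of all genes moved to 0.12 and that of the 10 genes to -0.07, since this scaling shifts every gene alike, and 7 of the 10 genes were below 0. With spike-in scaling 1 gene, Nlrc4, was past 2-fold.

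**Figure D3:**
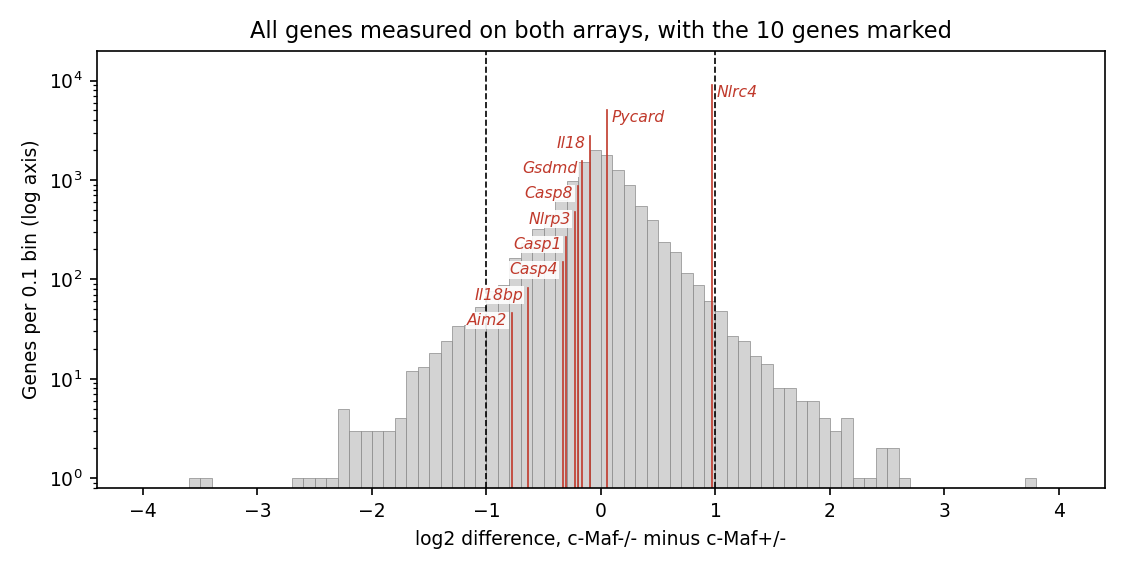
Number of genes per 0.1 bin of log2 difference (log axis) for the 12419 genes measured on both arrays, with the 10 genes marked in red and 2-fold as dashed lines. The genes lie inside both dashed lines, Nlrc4 just inside the upper one at 0.97.

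The promoters of the genes were read next to these values, from RefSeq windows of build GRCm38.p6 that run from 250 bases before to 50 after a gene's start. Windows were found for 9 of the 10 genes, not for Gsdmd. The motifs searched on both strands included the core of the interferon response element (GAAA, any 2 bases, GAAA), a Maf half-site (TGCTGAC) and the kappaB motif that NF-kB binds, and 1 other motif is not reported here. A kappaB match can overlap another on either strand. No window of the 9 genes held the interferon element core or the Maf half-site, which are in 3.43% and 4.67% of all 32807 windows. The kappaB motif, in 8.46% of all windows, was found in those of Casp4 and in 1 of 2 windows of Nlrp3. In the Casp4 window shown, the motif lies in separate stretches at positions -93 to -83 and -39 to -30 from the gene's start. The first stretch holds overlapping matches. The other Casp4 window overlaps this one, from a different start, and holds the same matches at -104 to -94 and -50 to -41. Nlrp3 holds the motif at -186 to -177. For Casp4 and Nlrp3, 1 window with matches each is shown with the motif in capitals, together with that of Nlrc4, the gene with the largest difference, which has no match to these. A match describes the letters only and says nothing about binding, and windows this short leave out most regulatory sequence.
Casp4, chr9:5308599-5308898, plus strand: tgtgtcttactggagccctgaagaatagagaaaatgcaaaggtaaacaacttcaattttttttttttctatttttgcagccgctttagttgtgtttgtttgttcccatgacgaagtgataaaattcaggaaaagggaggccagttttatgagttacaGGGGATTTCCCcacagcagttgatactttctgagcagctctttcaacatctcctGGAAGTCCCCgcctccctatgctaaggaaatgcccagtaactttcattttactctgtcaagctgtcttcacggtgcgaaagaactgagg
Nlrp3, chr11:59541319-59541618, plus strand: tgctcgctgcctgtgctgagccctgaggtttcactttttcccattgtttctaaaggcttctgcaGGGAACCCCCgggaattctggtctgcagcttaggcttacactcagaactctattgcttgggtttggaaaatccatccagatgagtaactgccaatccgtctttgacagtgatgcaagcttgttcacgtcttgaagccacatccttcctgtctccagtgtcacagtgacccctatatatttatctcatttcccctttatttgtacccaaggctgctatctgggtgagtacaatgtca
Nlrc4, chr17:74459059-74459358, minus strand: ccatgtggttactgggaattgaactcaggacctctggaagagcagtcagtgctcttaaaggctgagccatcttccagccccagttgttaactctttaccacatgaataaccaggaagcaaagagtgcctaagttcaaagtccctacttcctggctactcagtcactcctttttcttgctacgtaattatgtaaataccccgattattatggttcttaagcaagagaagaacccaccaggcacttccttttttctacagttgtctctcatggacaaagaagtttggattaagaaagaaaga

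Other genes of the pathway were taken from 6 lists with 102 distinct genes, of which 85 were measured on both arrays. Of these 85, 62 were below 0, beside 53.7% of all measured genes, and the median was -0.21. In all, 3 were at least 2-fold lower in c-Maf-/-, beside 1.74% of all genes, and 0 at least 2-fold higher, beside 1.43%.

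The other sensor genes leaned lower, with a median of -0.32 over 17 measured of 22. Of these, 15 were below 0 (all genes: 53.7%) and none was past 2-fold (all genes: 3.16%). The lowest were Naip1 (-0.77, from 1 dim probe at signals of 34.9 in c-Maf-/- against 58.2 in c-Maf+/-), Sting1 (-0.72), the adaptor of cytosolic DNA sensing, and Nod1 (-0.50), a sensor of bacterial cell wall fragments. Cgas, whose product makes the messenger that activates STING, was at -0.49 over 3 probes. The highest were Nlrx1 (0.50 over 2 probes), a mitochondrial NLR protein, and Naip2 (0.11), with Nlrc3 at -0.04. The NAIP genes that feed NLRC4 did not go with it: Naip5, the flagellin receptor, had signals of 34553 in c-Maf-/- against 35933 in c-Maf+/- (-0.08), and Naip6 was at -0.15. The Nlrc4 difference exceeded that of Naip5 by 1.05 and that of Naip2 by 0.86. NAIP genes are related copies, so some of their probes may read each other's RNA. Nlrp6 and Nlrp10 were not well above background on either array, and Nlrp12, well above background in c-Maf+/- only, was at least 1.05-fold lower in c-Maf-/-.

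Genes that license or restrain the inflammasome went both ways around a median of -0.03 over 19 measured of 21. Of these, 10 were below 0 (all genes: 53.7%). Serpinb1a, a protease inhibitor known to restrain inflammatory caspases and neutrophil proteases, was the 1 member past 2-fold (all genes: 3.16%). Its signals were 226 in c-Maf-/- against 503 in c-Maf+/- (-1.18, but -0.99 with normexp). Next on the lower side were the chloride channel gene Clic4 (-0.43) and Nek7 (-0.32), the kinase that NLRP3 needs to assemble. The potassium channel gene Kcnk6 (0.60), the volume-regulated channel gene Lrrc8a (0.37) and Pstpip1 (0.35), the gene of a pyrin-binding protein, were highest. The median of this list was above 0 under spike-in scaling (0.12), quantile normalization (0.03) and loess normalization (0.00099). Trim31 was not well above background, and the 2 probes of Trpm2, a cation channel gene, were each well above it on 1 array, a different one for each probe, so no fold is given.

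Among effectors of lytic death, the median was -0.09 over 10 measured of 14, and 0.06 with spike-in scaling. In this list 6 were below 0 (all genes: 53.7%) and none was past 2-fold (all genes: 3.16%). Ninj1, which encodes the protein that ruptures the plasma membrane at the end of pyroptosis, was the highest of them, with signals of 68512 in c-Maf-/- against 50408 in c-Maf+/- (0.42). Gsdmc (0.30), another gasdermin gene, and Gsdme (0.17), a gasdermin gene linked to apoptotic signals, came next. Among those below 0 was the ESCRT gene Chmp4b (-0.29 over 3 probes), of the machinery that repairs gasdermin pores. Casp12, a relative of Casp1 and Casp4, Gsdma and Gsdmc4 were not well above background on either array.

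The partners of caspase-8 had a median of -0.10 over all 17 members, and 0.05 with spike-in scaling. In this list 12 were below 0 (all genes: 53.7%) and none was past 2-fold (all genes: 3.16%). Tnfsf10, the gene of the death ligand TRAIL, had signals of 3655 in c-Maf-/- against 6978 in c-Maf+/- (-0.96), just short of 2-fold. Birc2 (-0.52), a ubiquitin ligase gene of the TNF receptor complex, and Cflar (-0.49 over 4 probes), the caspase-8 inhibitor cFLIP, followed. Birc3 was highest at 0.23, but its 2 probes disagreed, at -0.27 and 0.73, and Fadd (0.13), the adaptor that recruits caspase-8, was next, followed by Ripk3 (0.10).

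Genes of the interleukin-1 and interleukin-18 system lay on both sides of 0, with Il1b and Il1a highest. Il1b, the main caspase-1 substrate cytokine, had signals of 93021 in c-Maf-/- against 57162 in c-Maf+/- (0.68), and Il1a had 2475 in c-Maf-/- and 1617 in c-Maf+/- (0.59). Il1rn, the gene of the receptor antagonist, was at -0.25, with signals of 22172 in c-Maf-/- against 25864 in c-Maf+/-. The difference of Il1b exceeded that of Il18 by 0.77, and by 0.75 to 0.79 over the 9 settings. Spike-in scaling and the settings that filter or pick probes could not move this gap, as each gene has 1 bright probe. Tnf, a cytokine gene that needs no caspase-1, was at 0.31. Il1r2, the decoy receptor gene, was at 0.24 from signals of 43.7 in c-Maf-/- against 36.4 in c-Maf+/-, and Sigirr, an inhibitory receptor gene of the family, at -0.22. Il1rap, the shared receptor chain, was at -0.19 over 2 probes. Neither chain of the interleukin-18 receptor was well above background on both arrays: Il18r1 was well above it in c-Maf-/- only, at least 1.80-fold higher, and Il18rap in c-Maf+/- only, at least 1.40-fold lower in c-Maf-/-. Il33, another cytokine of the family, was well above background in c-Maf+/- only, with signals of 23.8 in c-Maf-/- against 68.3 in c-Maf+/-, at least 2.87-fold lower in c-Maf-/-. For a probe well above background on 1 array, the bound divides its scaled signal there by the higher of 2 values of the other array, the dim probe's own scaled signal and the lowest one well above background there. The median of the 6 measured genes was 0.02, with 3 below 0 (all genes: 53.7%) and 3 above. When a signal of at least 100 was asked for, Il1r2, Il1rap and Sigirr dropped out. The median of those left was then the Il1a value, 0.59. Il1r1 and Ifng were not well above background, and Il1rl1, the Il33 receptor gene, was well above it in c-Maf-/- only, at least 1.30-fold higher.

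The interferon arm held the lowest values. Its 17 genes, all measured, had a median of -0.49, with 16 below 0 (all genes: 53.7%) and 2 at least 2-fold lower (all genes: 1.74%), and the median stayed between -0.51 and -0.35 in the 9 settings. Gbp4, of the guanylate-binding proteins that act on pathogen membranes and bacterial LPS, had signals of 947 in c-Maf-/- against 2842 in c-Maf+/- (-1.61), and Iigp1, an immunity-related GTPase gene, 3622 in c-Maf-/- and 10294 in c-Maf+/- (-1.53 over 2 probes). Gbp5, known to promote NLRP3 assembly, was at -0.69 and Gbp2, which recruits caspase-11 to bacterial LPS, at -0.51. Irf1 was at -0.99, though its 2 probes lay at -1.34 and -0.65, and Ifnb1, the interferon beta gene, had signals of 166 in c-Maf-/- against 317 in c-Maf+/- (-0.95). Irf2, a factor known to drive Gsdmd, was at -0.77, and Gsdmd was at -0.16. Irf8, a factor known to drive the Naip genes and Nlrc4, had signals of 21434 in c-Maf-/- against 32988 in c-Maf+/- (-0.65). The part of Irf2 and Irf8 in the values of Gsdmd, the Naip genes and Nlrc4 was not tested. The receptor genes Ifnar2 (-0.03) and Ifnar1 (0.10 over 3 probes) were the highest of the list, with Stat2 (-0.21) next.

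**Figure D4:**
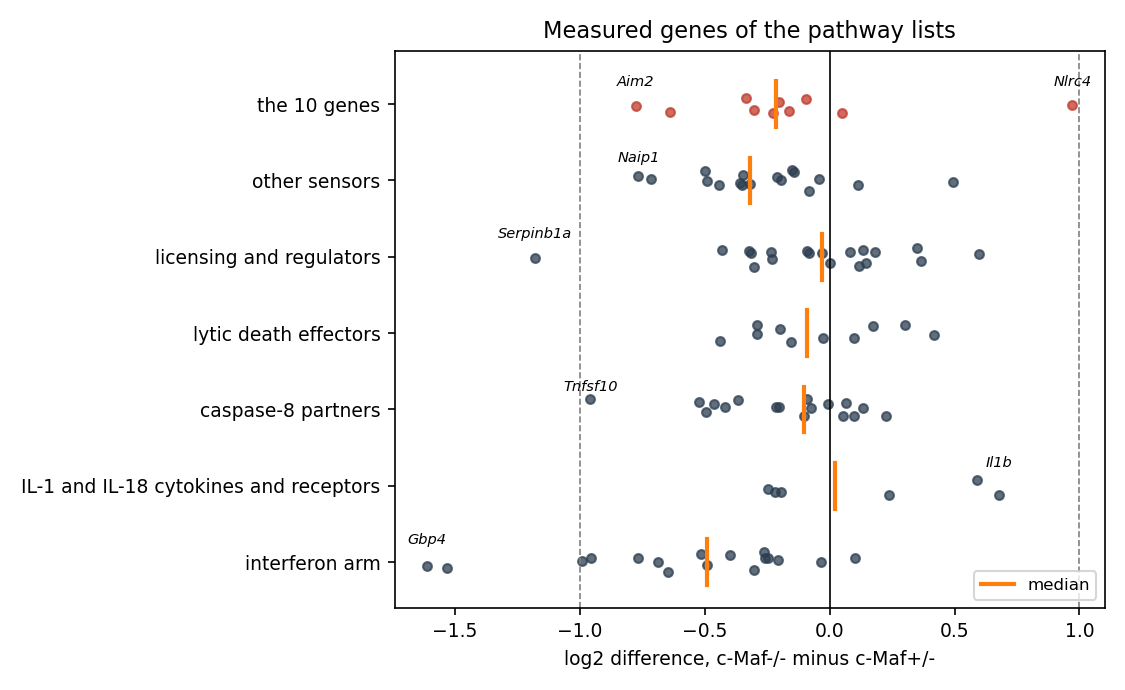
log2 difference, c-Maf-/- minus c-Maf+/-, of the 10 genes and of each measured gene of the 6 pathway lists (1 point per gene, vertical jitter only), with the list median in orange, 2-fold as dashed lines and the lowest or highest gene named where it lies far from 0. The interferon arm has the lowest median (-0.49), and Nlrc4 at 0.97 is the highest point in the plot.

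Of 80 values of the 10 genes under the 8 alternative settings, 66 moved by less than the median SD between probes of 1 gene (0.09) and 14 by more, among them all 10 with spike-in scaling. Of the 80, 1 changed sign, that of Il18 with spike-in scaling. The tally is not a measure of stability, because part of it was fixed in advance. Keeping dim probes and asking for a signal of 100 had to repeat each value, because every probe of the 10 genes passed both filters. The brightest probe had to do so for genes with 1 probe, and spike-in scaling shifts every gene alike.

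**Figure D5:**
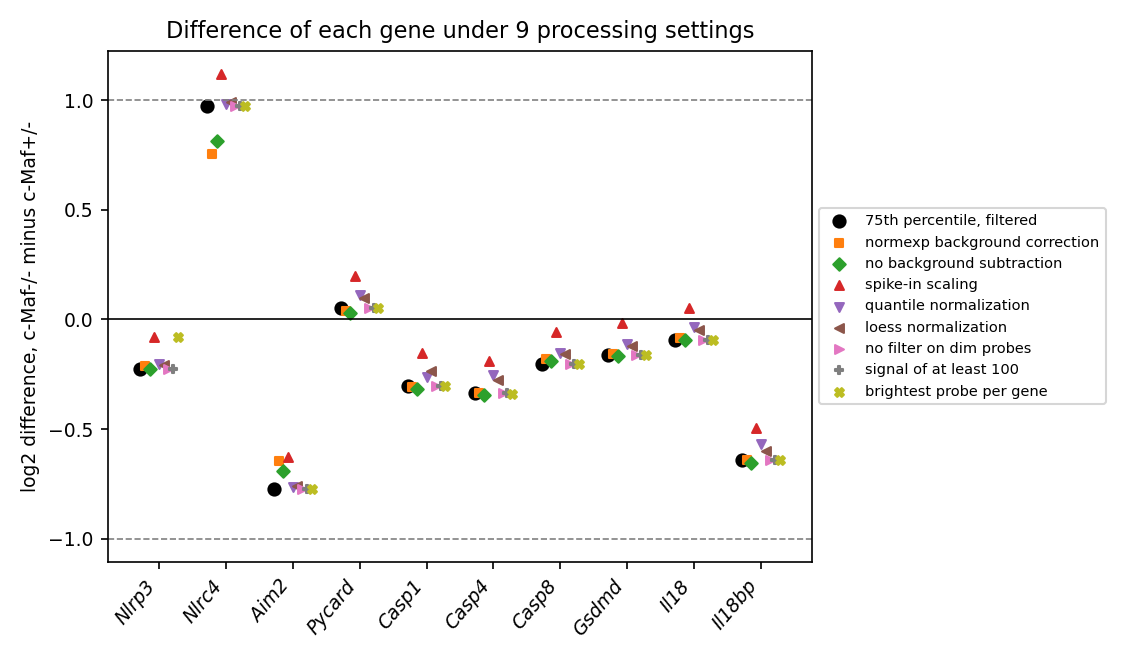
log2 difference of each of the 10 genes, c-Maf-/- minus c-Maf+/-, under the 9 processing settings (1 marker each), with 2-fold as dashed lines. Spike-in scaling (red triangles) is the highest value of each of the 10 genes, level with the brightest-probe value for Nlrp3, and it alone puts Nlrc4 past 2-fold.

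Markers of cell types were read beside these values, because fewer cells of a type and less RNA per cell cannot be told apart in such samples. All 8 macrophage markers were well above background on both arrays, with a median difference of 0.04 and Csf1r, the M-CSF receptor gene, at -0.03. Lyz2 (0.58) and Cd14 (0.46) were above 0, and Fcgr1 was the lowest (-0.58), next to Cd68 (-0.40) and Adgre1 (-0.40). Of 10 neutrophil markers, 9 were measured, all below 0 (all genes: 53.7%), while Retnlg was not well above background. Of these, 5 were past 2-fold lower (normexp or no background subtraction: 3), beside 1.74% of all genes. Their signals over all 9 summed to 55115 in c-Maf-/- and 99716 in c-Maf+/-, most of it from S100a8 and S100a9. Signals of different probes are not comparable as RNA levels, so such sums follow the brightest probes. Ngp (-1.45), Ltf (-1.41) and Prtn3 (-1.31) were lowest, Mpo was at -1.21 and S100a9 was at -1.01, while Elane (-0.03) was closest to 0, then Ly6g (-0.50) and S100a8 (-0.62). Of 10 dendritic cell markers, 8 were measured, 6 of them below 0 (all genes: 53.7%). Of these, 3 were at least 2-fold lower (normexp, spike-in scaling or no background subtraction: 1), beside 1.74% of all genes. These were Fscn1 (-1.50), Itgax (-1.09) and Bcl11a (-1.06), whose 2 probes lay at -1.62 and -0.50 and which was at -0.55 with normexp. Signals of the 8 measured dendritic cell markers summed to 46576 in c-Maf-/- and 44737 in c-Maf+/-, nearly all of it from Siglech. Cd209a and Xcr1 were not well above background. The part of these cell types in the values of the 10 genes was not tested.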

How the data were processed

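Cy3 was the label of both preparations, with 50 ng of RNA as input, per the labels' protocols. The deposited intensities come from Feature Extraction, version 10.7.3.1, by Agilent (protocol GE1_107_Sep09, design 028005), per the file headers. In the deposited processed intensities the software had removed background, corrected spatial trends and set surrogates for low spots, per the file headers, with no scaling across arrays. Mean and local background intensities, the processed signal's error and the 0 or 1 flags, as deposited, were used too.

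The log2 scale and the 75th percentile scaling were computed here. Spots flagged as outliers (149 for c-Maf-/-, 136 for c-Maf+/-) were dropped and spots of a probe averaged. A gene's value is the mean over its probes well above background on both arrays. Names were updated through a RefSeq gene table, which matched 31817 of 55681 probes, and counts over all genes cover matched names. Tools were Python 3.11.15, pandas 2.3.3, R 4.3.3 and limma 3.58.1 (normexp with offset 50, quantile, loess). The computation of differences was tested on simulated data. With 1 array per genotype no test was made and no p-value computed: genes were counted at 2-fold. The alternatives were normexp, no background subtraction, spike-in, quantile and loess scaling, no filter on dim probes, a signal of at least 100 and the brightest probe per gene. The genes and lists were chosen with earlier results of these data known. The text names all 10 genes, Maf, Il1b and Tnf, and of each list those past 2-fold, the 3 farthest from 0 each way and those near background, with some others (Cgas, Naip5, Naip6, Gbp2, Gbp5, Irf2, Irf8, Ifnar2, Csf1r) added for their role after their values were seen. Some genes that this rule takes are not reported here.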

Additional observations from a re-analysis of the deposited data

How the results depend on the processing

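With spike-in scaling, which raises every difference by 0.15, the number of the 10 genes at least 2-fold higher was 1 in place of 0, and their median -0.067 in place of -0.21. The number at least 2-fold lower was 0 in each of the 9 settings, and the median was below 0 in each. Keeping dim probes and asking for a signal of 100 could not change either for the 10 genes. Of all measured genes, 177 were past 2-fold on the higher side in c-Maf-/- and 216 on the lower side. Normexp gave 68 higher and 109 lower, leaving background in gave 82 higher and 124 lower, spike-in scaling gave 270 higher and 140 lower, keeping dim probes (22615 genes in place of 12419) gave 885 higher and 871 lower, and asking for a signal of 100 (10162 genes) gave 85 higher and 128 lower. Spike-in scaling moved the share of calls on the higher side to 65.9%, against 45.0%. The cause of the other shifts was not tested. No paired analysis was possible because each genotype has 1 array, and for the same reason no replicate could be left out. The Nlrc4 difference was 0.97, and 0.75 with normexp. Naip1 was at -0.77, at -0.34 with normexp and at 0.06 without the filter.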

Other observations

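Markers of further cell types also differed between the arrays. Of 5 erythroid and megakaryocyte markers, 4 were measured and all were higher in c-Maf-/- (all genes: 46.3%). Their median was 0.81, and 0.42 with normexp. Gp9, a platelet glycoprotein gene, had signals of 149 in c-Maf-/- against 77.7 in c-Maf+/- (0.91), Hba-a1, a globin gene, 55.4 in c-Maf-/- and 30.7 in c-Maf+/- (0.83), with Slc4a1 at 0.72. Ppbp, a platelet chemokine gene, gave 986 in c-Maf-/- and 562 in c-Maf+/- (0.79). The 5 stromal and endothelial markers were below 0 as means of their probes (all genes: 53.7%). Dcn (-0.95) and Col1a1 (-0.88) were lowest, then Kdr (-0.40), Col1a2 (-0.32) and Pecam1 (-0.01). The 2 probes of Kdr disagreed, at -0.95 and 0.15. Of 8 lymphocyte markers, 5 were measured, with Lck at -0.94, Cd79a at -0.33, Nkg7 at -0.07, Cd3e at 0.19 and Cd79b at 0.52, and Ms4a1 and Ncr1 not well above background.

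Siglech, a lectin gene used as a marker of plasmacytoid dendritic cells, gave 43949 signal units in c-Maf-/- cells, against 41554 in c-Maf+/- cells (0.06) at its 1 measured probe of 3, while Flt3, another marker of dendritic cells, had 34.7 in c-Maf-/- and 24.5 in c-Maf+/- (0.47) and Ccr7 was at -0.05.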
